A study of Homo sapiens with 38 samples.

Results

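CDX1, CDX2 and CDX4 are the human members of the caudal family of homeodomain transcription factors. They were taken by gene name from a table of transcript abundance that holds 58219 genes, so that 3 of 58219 genes are described here, and all 3 passed the filter on low values that left 28221 genes for testing. RNA selected for poly(A) tails was sequenced from H9, an established human embryonic stem cell line labelled wild type, as 38 libraries in 19 groups of 2. The groups were undifferentiated cells at day 0 (D0 ESC) and, at day 4 (D4) and day 8 (D8) of neural induction, cells under 9 conditions. These were IWP2, an inhibitor of WNT secretion, at 2.0 µM, and CT, a WNT activator whose name the labels leave unexpanded, at 0.0 (untreated), 0.4, 0.8, 1.0, 2.0, 3.0 and 4.0 µM. The last condition, CT4.0RA, combined CT at 4.0 µM with retinoic acid (RA) at 1.0 µM, and the design assigns it to the spinal cord fate, while CT alone is assigned to diencephalic to rhombencephalic fates. All groups stem from 1 cell line. The design calls the 2 libraries of a group biological replicates without saying whether they came from separate differentiations, so p-values measure the spread between these libraries.

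Caudal factors take part in the extension of the body axis and the patterning of its posterior part. In the tail bud they are induced by WNT and FGF signals, they bind the HOX clusters, and they take part in the activation of trunk HOX genes in the posterior neural tube and paraxial mesoderm. CDX1 is known as a direct target of both WNT and retinoic acid signals in the early embryo. CDX2 is also known for its roles in the trophectoderm and the intestinal epithelium, and CDX4 for its role in the posterior embryo and in blood formation.

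CDX1 (ENSG00000113722.16) lies at chr5:150166795-150184558 on the plus strand of hg38, CDX2 (ENSG00000165556.9) at chr13:27962137-27971139 on the minus strand and CDX4 (ENSG00000131264.3) at chrX:73447254-73455245 on the plus strand, as annotated in GENCODE 29. No annotated gene overlaps any of the 3. The RefSeq promoter table (GRCh38.p14) held entries for CDX2 and CDX4, 2 of the 3 genes, and the bases before their RefSeq starts were searched on both strands for the core of a TCF/LEF site (CTTTGA or CTTTGT), since those factors carry the WNT signal to DNA. Both entries held CTTTGA once on the gene's own strand, 238 bases before the RefSeq start of CDX2 and 219 bases before that of CDX4. They are shown, with the core in capitals, because these were the only CDX entries held. The CDX2 stretch is 30 bases long because it falls within the first exon of the GENCODE 29 model, which starts upstream of the RefSeq start.
CDX2, chr13:27969536-27969565, minus strand: cttgatttcattCTTTGAacctgtgattgg
CDX4, chrX:73446803-73447052, plus strand: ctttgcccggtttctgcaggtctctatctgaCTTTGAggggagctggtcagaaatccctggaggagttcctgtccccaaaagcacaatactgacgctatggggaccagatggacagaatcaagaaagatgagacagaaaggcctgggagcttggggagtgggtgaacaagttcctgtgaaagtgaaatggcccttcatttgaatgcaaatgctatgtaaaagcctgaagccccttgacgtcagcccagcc
Such a core was present in 22.8% of 35116 RefSeq promoters over the same 250 bases. The core of a caudal factor site, TTTAT, was found in the CDX2 window alone of these 2, 120 bases before the start and, on the other strand, 179 bases before it, and 32.7% of all promoters held it. The half-site of retinoic acid receptors, AGGTCA (12.1% of promoters), was in neither window. None of these matches overlapped another, and a match describes the letters only.

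Values are TPM, a transcript abundance that is corrected for length, scaled to a fixed total per library and comparable between genes. CDX genes were at or near 0 under most conditions, and each had its own set of groups with signal. In the 24 libraries from IWP2 to CT2.0 over both days, CDX1 ranged from 0 to 0.382 TPM and was listed at 0 in 12 of them. CDX2 ranged from 0 to 1.41 TPM in the same libraries, and its highest values, 0.590 and 1.41 TPM, were those of D4 CT2.0. Without D4 CT2.0 its maximum was 0.239 TPM. CDX4 was listed at 0 in all 24. In undifferentiated cells CDX1 was listed at 0 in both libraries and CDX2 was at 0.0173 and 0.0523 TPM, whereas CDX4 was at 1.79 and 2.51 TPM.

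**Figure D1:**
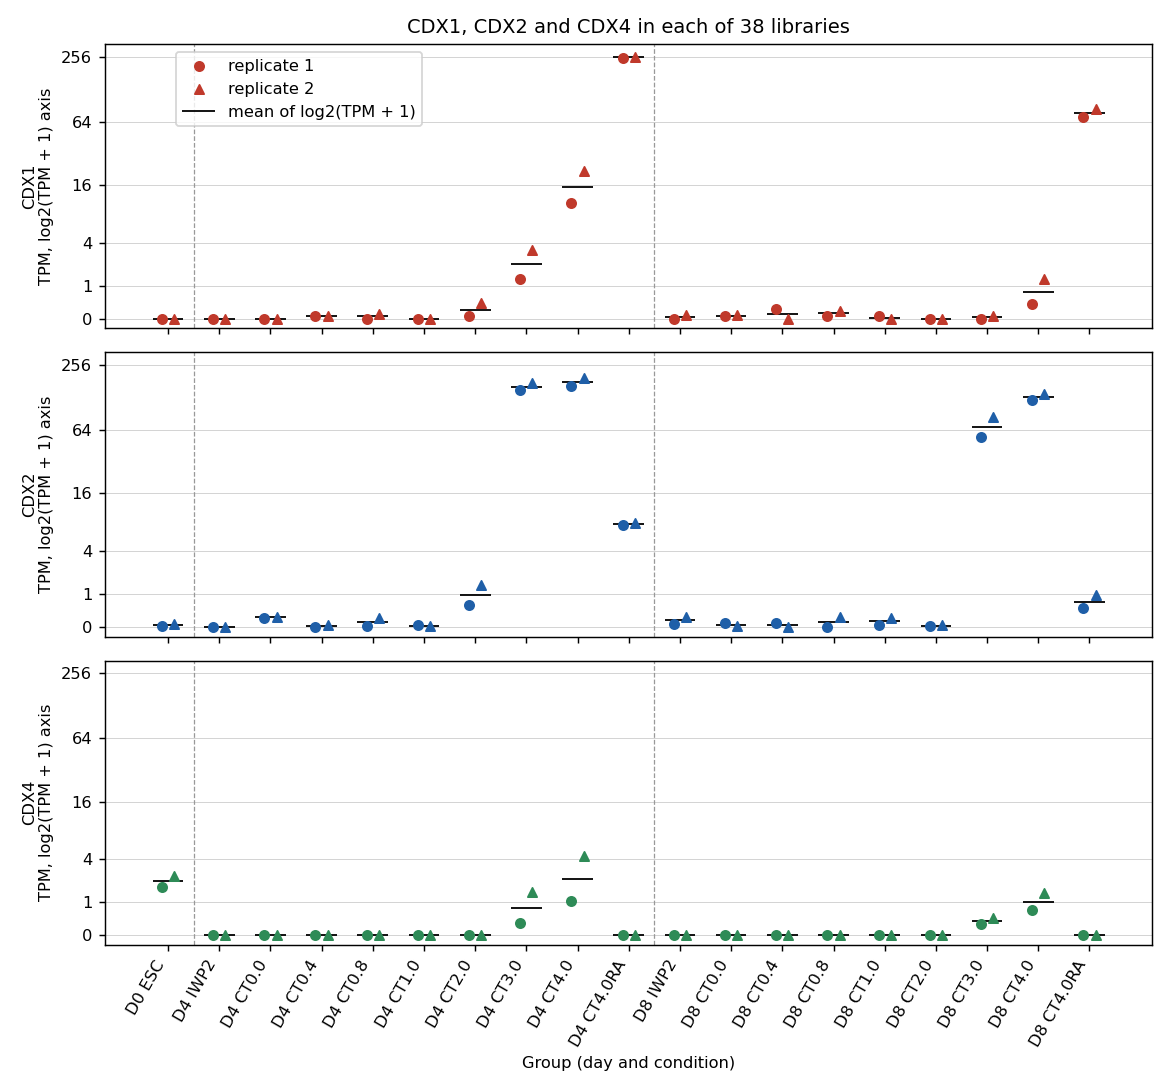
TPM of CDX1, CDX2 and CDX4 in each of 38 libraries, by group, on a log2(TPM + 1) axis. Circles and triangles are the 2 libraries of a group and lines the mean of their log2(TPM + 1). CDX2 stands above 50 TPM in the 8 libraries at CT3.0 and CT4.0, CDX1 above 70 TPM in the 4 libraries with RA, and CDX4 stays under 5 TPM throughout.

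At the highest CT doses CDX2 was the predominant caudal gene. It was at 149.6 and 174.1 TPM in D4 CT3.0, 164 and 193 TPM in D4 CT4.0, 55.4 and 84.2 TPM in D8 CT3.0, and 122 and 139.5 TPM in D8 CT4.0. All 8 of these libraries lay above every other library in the series, and with RA its values were 7.72 and 8.09 TPM at day 4 and 0.502 and 0.952 TPM at day 8. Ordered by mean level, D4 CT4.0 came first and D4 CT3.0 next, with overlapping libraries, followed by D8 CT4.0, D8 CT3.0 and D4 CT4.0RA, each separate from its neighbours. D4 CT2.0 and D8 CT4.0RA came after these and overlapped.

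CDX1 followed another order. Its highest values were those of the RA groups, 249 and 257 TPM in D4 CT4.0RA and 70.2 and 84.9 TPM in D8 CT4.0RA. Without RA it was at 10.5 and 22.0 TPM in D4 CT4.0, 1.33 and 3.32 TPM in D4 CT3.0, and 0.352 and 1.29 TPM in D8 CT4.0. In D8 CT3.0 it was listed at 0 in one library and at 0.0597 TPM in the other, which lies within the range from IWP2 to CT2.0. The libraries of the first 4 groups in the order (D4 CT4.0RA, D8 CT4.0RA, D4 CT4.0 and D4 CT3.0) did not overlap with those of the group next below. Those of D8 CT4.0 and D4 CT2.0 did.

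CDX4 stayed low in every group, with a maximum of 4.31 TPM. At CT3.0 and CT4.0 its mean lay below that of CDX1 at day 4 and above it at day 8, where the libraries of CDX1 and CDX4 overlapped at CT4.0. It was at 1.06 and 4.31 TPM in D4 CT4.0, 0.301 and 1.48 TPM in D4 CT3.0, 0.711 and 1.43 TPM in D8 CT4.0, and 0.269 and 0.447 TPM in D8 CT3.0. In all 4 libraries with RA it was listed at 0. The highest group, D4 CT4.0, overlapped with undifferentiated cells, and D8 CT4.0, D4 CT3.0 and D8 CT3.0 overlapped in sequence. In each of the 4 groups at CT3.0 and CT4.0, the library numbered 2 held the higher value of each of the 3 genes. The same held for CDX1 and CDX2 in both RA groups.

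The summed TPM of the 3 genes was made up almost wholly of 1 member in each state. CDX2 was 88.0% to 99.5% of the sum in the 8 libraries at CT3.0 and CT4.0, and CDX1 was 96.9% to 99.3% in the 4 libraries with RA. The sum itself was higher with RA at day 4, without overlap, at 257 and 264.6 TPM in D4 CT4.0RA against 175.7 and 219.6 TPM in D4 CT4.0. At day 8 it was 123 and 142 TPM without RA and 70.7 and 85.9 TPM with it. CDX4 contributed at most 1.97%, in one library of D4 CT4.0.

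**Figure D2:**
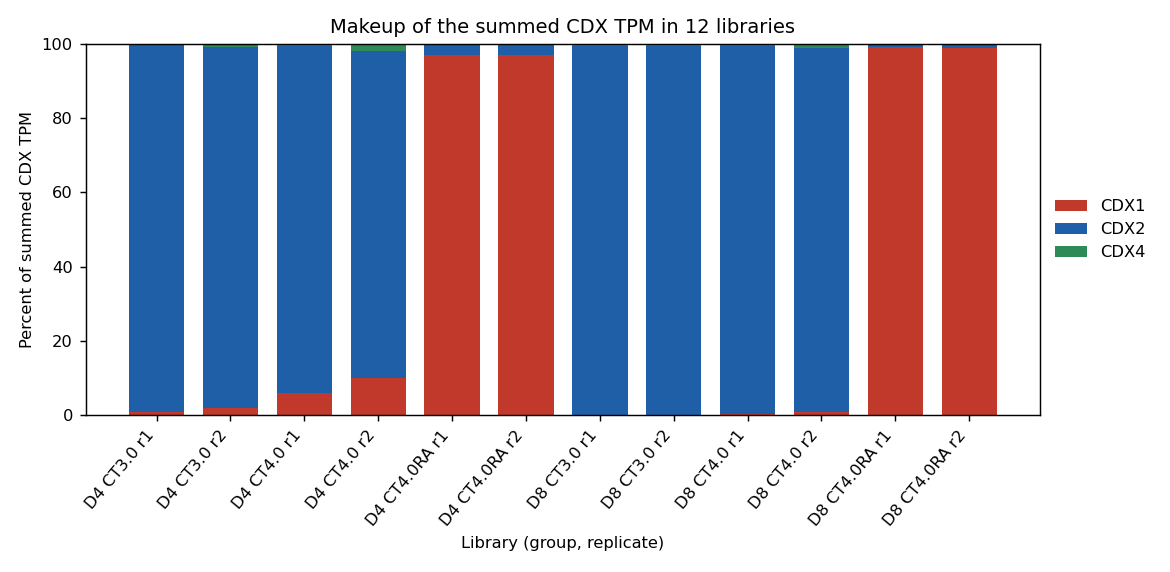
Share of each gene in the summed TPM of CDX1, CDX2 and CDX4 in the 12 libraries at CT3.0 and above, in percent; each bar is 1 library (r1 and r2 are the replicates). CDX2 fills 88.0% or more of each bar without RA, and CDX1 96.9% or more of each bar with RA.

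To test differences, 19 group means were fitted on log2(TPM + 1) with limma, and all differences below are on that scale, which understates the change of low genes. A call required a difference of at least 1 in size and an adjusted p (Benjamini-Hochberg, over all genes of the comparison) under 0.05. The spread of a gene is shared over all 19 groups in this fit, and for CDX genes it includes many groups near 0 with little spread. Its standard errors (SE) for a difference of 2 groups are therefore the same everywhere, 0.28 for CDX1, 0.20 for CDX2 and 0.29 for CDX4. Among 48 results, of which only some were called and could lose a call, the spread estimated from only the groups compared ended 14 calls. One was that of CDX1 in D4 CT3.0 against untreated cells (1.67, adjusted p = 9.05e-05 in the fit of all groups and 0.13 in the smaller fit, with 2.87% of all genes called higher), and the others are given beside their comparisons. The libraries are bulk samples, in which fewer cells of a type and less RNA per cell cannot be told apart.

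Dose was examined first between neighbouring CT doses. CDX2 rose between CT2.0 and CT3.0 on both days, from 0.590 and 1.41 TPM to 149.6 and 174.1 TPM at day 4 and from 0.0174 and 0.0326 TPM to 55.4 and 84.2 TPM at day 8. The difference was 6.37 (adjusted p = 1.46e-15) at day 4 and 6.08 (adjusted p = 1.99e-15) at day 8. CDX1 rose over the same step at day 4, by 1.39 (adjusted p = 0.00137), and at day 8 it did not (0.04, adjusted p = 1). CDX4 moved from 0 to at most 1.48 TPM at day 4, a difference of 0.85 that did not pass (adjusted p = 0.0659), and its day 8 difference was 0.44 (adjusted p = 0.285). Thus 2 of the 3 were called higher at day 4, where 2.04% of all genes tested were called higher, and 1 of the 3 at day 8, where 4.08% were. At day 4 the CDX1 difference was 0.94 and not called (adjusted p = 0.0721) without replicate 2 of D4 CT3.0, nor was it called from only the groups compared (adjusted p = 0.286), and that of CDX4 was 1.31 and called (adjusted p = 0.00944) without replicate 1.

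The step from CT3.0 to CT4.0 separated CDX1 from CDX2 at day 4. CDX1 rose further, from 1.33 and 3.32 TPM to 10.5 and 22.0 TPM (difference 2.36, adjusted p = 4.53e-04), in a comparison in which 0.0638% of genes were called higher. CDX2 differed by 0.14 (adjusted p = 1), with overlapping libraries, and CDX4 by 0.88 (adjusted p = 0.367), also with overlapping libraries. Whether the steps of CDX1 and CDX2 differ from each other was not tested. With the spread estimated from the 6 groups at CT3.0 and above, the CDX1 difference kept its size and had an adjusted p of 0.197, with only the 2 groups compared 0.68, and with a pseudocount of 0.1 it was 2.79 (adjusted p = 0.101). CDX4 was called (1.56, adjusted p = 0.00479) without replicate 1 of D4 CT4.0.

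At day 8 none of the 3 genes was called between CT3.0 and CT4.0, where 0.308% of all genes were called in either direction. CDX2 was higher at CT4.0 by 0.92, short of the size required, with an adjusted p of 0.0362 and no overlap of libraries. It passed (1.22, adjusted p = 0.0111) without replicate 2 of D8 CT3.0. CDX1 differed by 0.77 (adjusted p = 0.311) and CDX4 by 0.59 (adjusted p = 0.555). At the lower doses, the one neighbouring step with an adjusted p under 0.05 was that of CDX2 from CT1.0 to CT2.0 at day 4, from 0.0311 and 0.0163 TPM to 0.590 and 1.41 TPM. It amounted to 0.94 (adjusted p = 0.0064) in a comparison in which 1.9% of genes were called, and it was called (1.24, adjusted p = 0.0017) without replicate 1 of D4 CT2.0.

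Against untreated cells of the same day, all 3 genes were higher in D4 CT4.0, by 4.03 for CDX1 (adjusted p = 1.59e-10), 7.19 for CDX2 (adjusted p = 5.31e-17) and 1.73 for CDX4 (adjusted p = 9.13e-05). In that comparison 3.31% of genes were called higher. Untreated cells were listed at 0 for CDX1 and CDX4 and stood at 0.219 and 0.230 TPM for CDX2. In D8 CT4.0, CDX2 was higher by 6.97 (adjusted p = 7.18e-17) and CDX4 by 1.03 (adjusted p = 0.00714), while CDX1, at 0.352 and 1.29 TPM against 0.0506 and 0.0713 TPM, differed by 0.73 (adjusted p = 0.0429) and missed the size required. The share of genes called higher there was 3.15%. Without replicate 2 of D8 CT4.0 the CDX4 difference was 0.77 and not called (adjusted p = 0.104), and without replicate 1 that of CDX1 was 1.11 and called (adjusted p = 0.0098). When only the groups compared were fitted, CDX1 at day 4 (adjusted p = 0.0527) and CDX4 at day 4 (adjusted p = 0.205) and day 8 (adjusted p = 0.0758) were no longer called.

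IWP2 left all 3 genes at or near 0. CDX1 and CDX4 were listed at 0 in both D4 IWP2 libraries and so was CDX2, and in D8 IWP2 the highest value was 0.239 TPM, of CDX2. None of the 3 was called against untreated cells at either day, where 0.283% of genes at day 4 and 0.425% at day 8 were called in either direction. A decrease could not be shown for genes that were near 0 in untreated cells.

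The addition of RA to CT4.0 was the condition in which the members parted, and they were singled out with that response known, so the tests below are not independent support for it. CDX1 went from 10.5 and 22.0 TPM to 249 and 257 TPM at day 4, a ratio of means of 15.5, and from 0.352 and 1.29 TPM to 70.2 and 84.9 TPM at day 8, a ratio of means of 94.3. The differences were 3.96 (adjusted p = 4.34e-10) and 5.47 (adjusted p = 1.27e-12). No library with RA overlapped with one without it on either day.

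CDX2 moved the other way. It went from 164 and 193 TPM to 7.72 and 8.09 TPM at day 4, which leaves a ratio of means of 0.0442, and from 122 and 139.5 TPM to 0.502 and 0.952 TPM at day 8, a ratio of 0.00556. The differences were -4.33 (adjusted p = 6.79e-13) and -6.26 (adjusted p = 1.06e-15). With RA at day 4 CDX2 still lay above all 24 libraries from IWP2 to CT2.0. At day 8 it lay within their range only because of D4 CT2.0, and above the other 22 libraries, whose maximum was 0.239 TPM. CDX4, at 1.06 and 4.31 TPM in D4 CT4.0 and 0.711 and 1.43 TPM in D8 CT4.0, was listed at 0 in every RA library. Its differences were -1.73 (adjusted p = 1.12e-04) and -1.03 (adjusted p = 0.0104).

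With RA, 1 of the 3 genes was thus called higher and 2 lower on each day. Of all genes tested, 1.77% were called higher and 4.07% lower at day 4, and 4.54% and 4.33% at day 8. The day 8 call of CDX4 was lost without replicate 2 of D8 CT4.0 (-0.77, adjusted p = 0.141) and, at an unchanged difference, without replicate 1 (adjusted p = 0.0507) or replicate 2 (adjusted p = 0.052) of D8 CT4.0RA or with the 6 groups at CT3.0 and above alone (adjusted p = 0.18). When only the groups compared were fitted, CDX1 at day 4 (adjusted p = 0.0649) and CDX4 at day 4 (adjusted p = 0.223) and day 8 (adjusted p = 0.101) lost their calls.

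**Figure D3:**
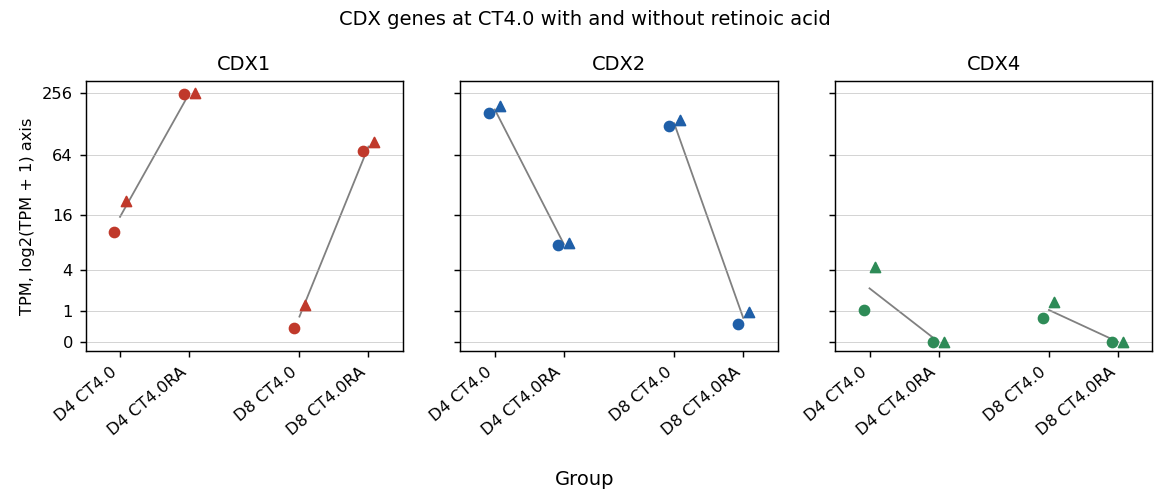
TPM of the 3 genes at CT4.0 without and with RA at day 4 and day 8, on a log2(TPM + 1) axis; points are libraries (circle, replicate 1; triangle, replicate 2) and grey lines join the means of log2(TPM + 1). CDX1 climbs to between 70.2 and 257 TPM with RA, CDX2 drops to between 0.502 and 8.09 TPM, and CDX4 drops to 0.

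The share of TPM taken by ribosomal protein genes also moved with RA. It was 21.5% and 22.8% in D4 CT4.0 against 29.1% and 29.2% in D4 CT4.0RA, and 28.4% in both D8 CT4.0 libraries against 36.4% and 37.2% in D8 CT4.0RA. Across the series it ranged from 16.3% to 37.2%. Under TMM-type scaling, and with ribosomal protein and mitochondrial genes taken out of the total, the RA calls of the 3 genes and their directions did not change. The median difference of all genes with RA was -0.18 at day 4 and 0 at day 8, and that of CT4.0 against untreated cells was -0.27 at day 8; TMM-type scaling set these medians to 0.

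Between day 4 and day 8, CDX1 fell at both CT3.0 and CT4.0, and CDX2 was called lower at CT3.0 alone. From D4 CT4.0 to D8 CT4.0, CDX1 fell from 10.5 and 22.0 TPM to 0.352 and 1.29 TPM (-3.21, adjusted p = 2.11e-08), and from D4 CT3.0 to D8 CT3.0 from 1.33 and 3.32 TPM to at most 0.0597 TPM (-1.63, adjusted p = 1.23e-04). For CDX2 the difference at CT3.0, from 149.6 and 174.1 TPM to 55.4 and 84.2 TPM, was -1.23 (adjusted p = 8.92e-05). At CT4.0 its values of 164 and 193 TPM against 122 and 139.5 TPM gave -0.45 (adjusted p = 0.133). CDX4 differed by -0.41 at CT3.0 (adjusted p = 0.376) and by -0.70 at CT4.0 (adjusted p = 0.0951). The shares of genes called lower at day 8 were 4.31% at CT3.0 and 3.81% at CT4.0. Without replicate 1 of D8 CT3.0 the CDX2 difference at CT3.0 was -0.93, under the size required, and without replicate 1 of D4 CT4.0 that of CDX4 at CT4.0 was -1.38 and called (adjusted p = 4.68e-04). From only the groups compared, none of the 3 calls was kept (adjusted p = 0.0981 for CDX1 at CT4.0, 0.14 for CDX1 and 0.128 for CDX2 at CT3.0), and with a pseudocount of 0.1 that of CDX2 was lost (adjusted p = 0.135).

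With RA present, both CDX1 and CDX2 were lower at day 8 than at day 4. CDX1 went from 249 and 257 TPM to 70.2 and 84.9 TPM (-1.70, adjusted p = 7.41e-05) and CDX2 from 7.72 and 8.09 TPM to 0.502 and 0.952 TPM (-2.38, adjusted p = 1.08e-08). CDX4 was listed at 0 at both times. In this comparison 1.96% of genes were called lower. The CDX1 call was lost with a pseudocount of 0.1 (adjusted p = 0.0633) and that of CDX2 from only the groups compared (adjusted p = 0.0517). At CT2.0 the low values of CDX2 at day 4 were not seen again at day 8, with a difference of -0.93 (adjusted p = 0.00375) that missed the size required and 1.06% of genes called lower; without replicate 1 of D4 CT2.0 it was -1.23 and called (adjusted p = 0.0013).

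Whether an effect differed between days was tested with interaction terms. The effect of CT4.0 over untreated cells was smaller at day 8 than at day 4 for CDX1, by 3.30 (the term was -3.30, SE 0.39, adjusted p = 4.13e-06). For CDX2 the term was -0.22 (SE 0.29, adjusted p = 0.699) and for CDX4 -0.70 (SE 0.41, adjusted p = 0.291). The effect of RA was larger at day 8 in both directions, with a term of 1.51 for CDX1 (SE 0.39, adjusted p = 0.01) and -1.93 for CDX2 (SE 0.29, adjusted p = 5.95e-05), and 0.70 for CDX4 (SE 0.41, adjusted p = 0.312). Called in either direction were 8.19% of genes for the CT4.0 term and 7.13% for the RA term. The CDX1 term for RA lost its call without replicate 2 of D4 CT4.0 (1.01, adjusted p = 0.0968) or replicate 1 of D8 CT4.0 (1.13, adjusted p = 0.0785), with a pseudocount of 0.1 (2.56, adjusted p = 0.06), and with the spread from only the groups compared (adjusted p = 0.194) or from the 6 groups at CT3.0 and above (adjusted p = 0.163). Without replicate 1 of D4 CT4.0, both CDX4 terms were called, the RA term at 1.38 (adjusted p = 0.00631) and the CT4.0 term at -1.38 (adjusted p = 0.00602). The RA and CT4.0 terms share the CT4.0 libraries.

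CDX4 was the member with signal before induction. It fell from 1.79 and 2.51 TPM in D0 ESC to 0 in both untreated D4 libraries (-1.65, adjusted p = 8.06e-05), in a comparison in which 9.24% of genes were called lower. Its level in D4 CT4.0 differed from that of D0 ESC by 0.08 (adjusted p = 0.942), with overlapping libraries, and the sign of this difference turned when replicate 2 of D4 CT4.0 (-0.61) or replicate 1 of D0 ESC (-0.09) was left out. CDX1 and CDX2 rose over the same interval, by 4.03 (adjusted p = 7.49e-11) and 7.44 (adjusted p = 7.51e-18), where 4.71% of genes were called higher.

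HOX genes, the best known targets of caudal factors, were described from lists by paralog group, whose counts are set beside the CDX genes without a test of the lists. Of 19 genes of groups 4 to 9, 18 were tested, and 17 of these rose from D4 CT2.0 to D4 CT3.0, the step at which CDX2 rose, with a median of 4.95 against 0 for all genes. Of all genes, 2.04% were called higher and 1.72% lower at that step. HOXA9, HOXC6, HOXC8 and HOXC9 had means under 1 TPM in every group from D0 ESC to CT2.0. They passed the filter on low values only through groups at CT3.0 and above. HOXD9, the gene not tested, was at 0 in D4 CT2.0 and D4 CT3.0. The counts of this list, here and with RA, were thus partly fixed by the filter. HOXB9 went from 3.05 to 499.8 TPM (7.32, adjusted p = 5.33e-10), HOXC4 from 0.961 to 229.6 TPM (6.86, adjusted p = 2.49e-15), HOXA7 from 0 to 122 TPM (6.71, adjusted p = 9.37e-11) and HOXB6 from 1.11 to 211.7 TPM (6.64, adjusted p = 3.51e-12). At day 8 the same count, 17 of 18, rose over that step with a median of 5.51, against -0.09 for all genes, of which 4.08% were called higher. Of the 8 genes of groups 1 to 3, which pattern the hindbrain, 3 rose and 1 fell at day 4. From D4 CT3.0 to D4 CT4.0, where CDX1 rose, none of the 18 genes of groups 4 to 9 was called by limma (median 0.61 against 0). Of all genes, 0.0638% were called higher there. HOXA9, with the largest difference, went from 17.4 to 54.7 TPM (1.97, adjusted p = 0.062). HOXB9, with the lowest, went from 499.8 to 347 TPM (-0.51, adjusted p = 0.97).

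With RA, 16 of the 18 tested HOX genes of groups 4 to 9 fell at day 4, 1 rose and 1 was not called, and the median was -3.28 against -0.18 for all genes. Of all genes, 4.07% were called lower and 1.77% higher. HOXA7 went from 281 to 0.546 TPM (-7.58, adjusted p = 8.68e-12), HOXC8 from 81.9 to 0.0173 TPM (-6.32, adjusted p = 8.66e-14), HOXC6 from 59.7 TPM to 0 (-5.87, adjusted p = 6.79e-13) and HOXA9 from 54.7 to 0.220 TPM (-5.47, adjusted p = 2.54e-09). The gene that rose, HOXD4, went from 16.3 to 54.8 TPM (1.78, adjusted p = 4.31e-06). At day 8, 12 fell, 1 rose and 5 were not called, with a median of -1.54 against 0, beside 4.33% of all genes called lower and 4.54% higher. HOXB9, among those not called at day 8, stood at 175.6 TPM without and 217.7 TPM with RA. In these libraries with RA, CDX2 was at 0.502 and 0.952 TPM and CDX1 at 70.2 and 84.9 TPM. Whether CDX genes act on HOXB9 here was not tested. Of groups 1 to 3, 2 rose and 3 fell at day 4 and 3 rose and none fell at day 8, and HOXD1 went from 0.241 to 5.76 TPM at day 4 (2.45, adjusted p = 2.99e-12). HOX genes of a cluster overlap or lie close together and counting by strand is not given in the sources used here, so values of single HOX genes may be shared between neighbours.

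**Figure D4:**
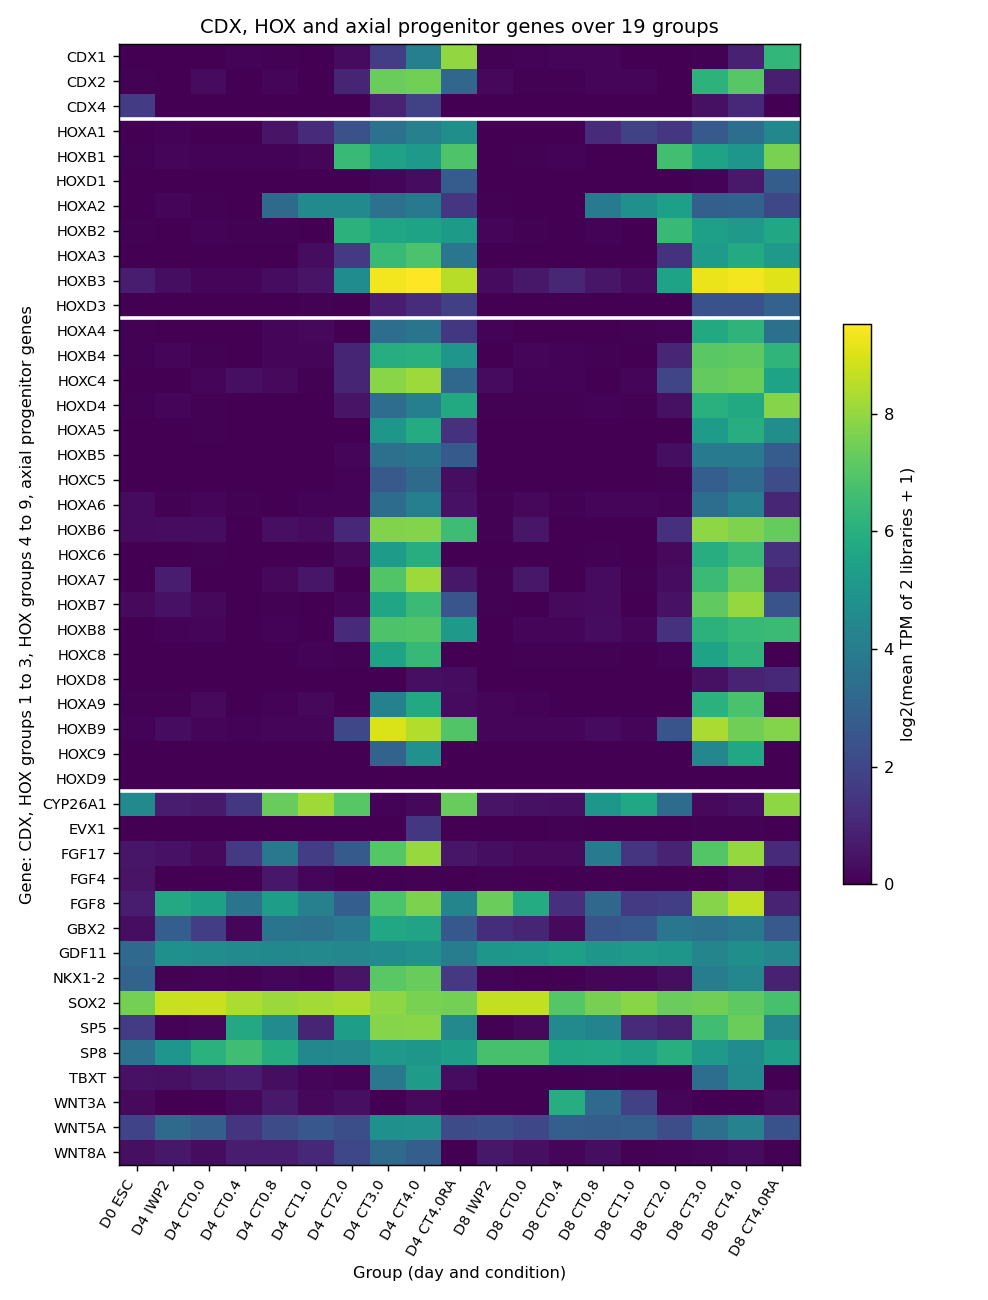
Heat map of log2(mean TPM of 2 libraries + 1) for the CDX genes, HOX genes of groups 1 to 3 and 4 to 9, and axial progenitor genes (rows, blocks split by white lines) over 19 groups (columns). The HOX genes of groups 4 to 9 light up with CDX2 in the 4 groups at CT3.0 and CT4.0, except HOXD8 and HOXD9. In the RA columns HOXA7, HOXA9, HOXC8 and HOXC9 are dark, while HOXB4, HOXB6, HOXB8, HOXB9 and HOXD4 are bright.

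The list of axial progenitor genes holds factors of the tail bud in which caudal factors act, and 13 of its 15 genes were tested. From D4 CT2.0 to D4 CT3.0, 8 rose and 1 fell (median 1.72 against 0), beside 2.04% of all genes called higher and 1.72% lower. NKX1-2, a marker of the region that feeds the elongating spinal cord, went from 0.417 to 136.7 TPM (6.60, adjusted p = 4.68e-15), FGF17 from 5.56 to 129 TPM and FGF8 from 6.16 to 112 TPM. CYP26A1, an enzyme that degrades retinoic acid, went from 129.9 to 0.0566 TPM (-6.95, adjusted p = 1.06e-12). With RA at day 4, 8 fell and 1 rose (median -2.88 against -0.18), beside 4.07% of all genes called lower and 1.77% higher. Among those that fell were FGF17 from 263 to 0.504 TPM, NKX1-2 from 156.5 to 2.02 TPM and TBXT, a factor of the primitive streak and notochord, from 36.3 to 0.248 TPM. SOX2 and SP8, the most abundant members that were not called, were at 194 and 31.9 TPM without and 183 and 39.4 TPM with RA. At day 8 RA left 7 lower and 1 higher (median -1.20 against 0), beside 4.33% and 4.54% of all genes, with FGF8 at 395 TPM without and 0.872 TPM with RA.

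Of 15 canonical targets of the WNT pathway, which acts on CDX genes, 2 rose from D4 CT2.0 to D4 CT3.0, SP5 from 38.1 to 219 TPM (2.52, adjusted p = 0.00194) and NKD1 from 15.0 to 61.4 TPM (1.96, adjusted p = 3.44e-06), and AXIN2 stood at 56.8 and 59.0 TPM. At that step 2.04% of all genes were called higher. Against untreated cells at day 4, 10 of the 15 were higher in CT4.0, 1 was lower and 4 were not called, beside 3.31% of all genes called higher (median 1.59 against -0.06). RA lowered 7 and raised 1 of the 15 at day 4 (median -0.70 against -0.18), and lowered 6 and raised 1 at day 8 (median -0.80 against 0). Of all genes, 4.07% were called lower and 1.77% higher with RA at day 4, and 4.33% and 4.54% at day 8. LGR5 was the gene that rose at day 4, from 2.26 to 12.7 TPM. SP5 and SP8 stand in both this list and that of axial progenitor genes.

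Genes known to respond to retinoic acid moved in both directions. At day 4, 7 of 17 tested rose with RA and 6 fell, beside 1.77% and 4.07% of all genes (median 0.63 against -0.18). At day 8, 10 rose and 4 fell, beside 4.54% and 4.33% (median 1.42 against 0). At day 4 CYP26A1 went from 0.139 to 159 TPM (7.01, adjusted p = 7.87e-13) and RARB, a receptor, from 0.363 to 22.6 TPM (4.11, adjusted p = 1.79e-12). Those that fell included STRA6, a retinol transporter, from 118 to 21.7 TPM, and 3 HOX genes that the list of groups 4 to 9 also holds. CYP26A1 was at 0.0566 and 0.139 TPM in D4 CT3.0 and D4 CT4.0, the day 4 groups in which CDX2 was highest. It was also low in day 4 groups with CDX2 near 0, at 0.695 TPM in IWP2, 0.622 TPM in CT0.0 and 1.94 TPM in CT0.4. In the other day 4 groups without RA it was at 159.5 TPM (CT0.8), 286.8 TPM (CT1.0) and 129.9 TPM (CT2.0).

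Markers of the labelled cell type and of other types were read beside these results. The labels call the induced cells neural progenitors, and the markers of that type were reduced in the groups in which CDX2 was high. From D4 CT2.0 to D4 CT3.0, 6 of 10 fell and none rose (1.72% of all genes were called lower), with SOX1 at 80.0 and 1.30 TPM, PAX6 at 29.3 and 2.13 TPM and HES5 at 20.6 and 0.133 TPM, while SOX2, which was not called, stood at 326 and 237 TPM. The summed TPM of the 10 markers was 1086 to 1168 in D4 CT2.0 and 501 to 558 in D4 CT3.0. With RA, 5 of 10 rose and none fell on each day, beside 1.77% of all genes called higher at day 4 and 4.54% at day 8 (medians 1.28 against -0.18 and 1.03 against 0), PAX6 going from 1.49 to 168 TPM at day 4 and from 1.54 to 326 TPM at day 8. The part of these shifts in the CDX values was not tested.

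CDX2 marks the trophectoderm as well, and the 10 markers of that type summed to at most 1.64 TPM per library in the 4 groups at CT3.0 and CT4.0, with GATA3, ELF5 and VGLL1 listed at 0 in D4 CT4.0. The 10 markers of intestinal epithelium summed to 1.72 to 5.33 TPM in the libraries at CT3.0 and CT4.0. With RA they summed to 135.3 to 140.0 TPM at day 4, of which FABP1, a fatty acid carrier, made up 134.5 TPM, while KRT20 was at 1.13 TPM, CLDN18 at 1.02 TPM and CDH17 at 0.770 TPM (0.0226, 1.58 and 0.0328 TPM without RA; none of the 3 was called). SI and TFF3 were at 0 in these cells, MUC2 at 0.00221 TPM and VIL1 at 0.0338 TPM. At day 8 with RA the sum was 6.11 to 7.18 TPM. Among 8 endoderm markers, SOX17 and GATA4 were listed at 0 at CT4.0 on both days, with and without RA. Mesoderm markers summed to 54.7 to 80.8 TPM in D4 CT4.0 and 37.7 to 50.3 TPM in D4 CT4.0RA, with TBXT the highest in the first and DLL3, which neural cells also express, in the second; MSGN1 was at 1.03 TPM in D4 CT4.0 and at 0 with RA. MEOX1, a somite gene, rose with RA, from 0.0783 to 6.68 TPM at day 4 (2.83, adjusted p = 8.91e-10) and from 0.0127 to 11.7 TPM at day 8 (3.61, adjusted p = 1.14e-11). With RA, 2 of the 6 mesoderm genes tested rose and 2 fell at day 4, and 1 rose and 2 fell at day 8. The shares of all genes called higher and lower were 1.77% and 4.07% at day 4 and 4.54% and 4.33% at day 8.

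Genes whose pattern was most like that of each CDX gene were taken from 15337 named protein-coding genes by Pearson's r of the group means of log2(TPM + 1) over the 19 groups, given as a description. All group means share their libraries and the contrast of a few groups with the rest, which lets many genes reach a high r. For CDX2 the leading genes were URAD (r = 0.996), GCSAM (0.980), C3orf52 (0.971), HOXA6 (0.970) and HOXA7 (0.967). CDX1 was followed by NPC1L1 (0.968), SLC6A7 (0.954), PCBD1 (0.932), HOXD1 (0.928) and OAF (0.914), and CDX4 by SLC24A2 (0.972), EXOC3L2 (0.946), RAC2 (0.935), SMIM3 (0.916) and EOGT (0.906). None of the 15 was shared between the CDX genes. The leading genes of CDX4 were also at their higher levels in undifferentiated cells, SLC24A2 at 2.66 TPM and RAC2 at 3.45 TPM in D0 ESC.

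Among these, URAD and SLC6A7 are the annotated neighbours of CDX2 and CDX1, and they were singled out after their values were seen. URAD lies at chr13:27977714-27988654 on the minus strand, 6574 bp from CDX2 on the upstream side, and SLC6A7 at chr5:150189957-150222788 on the plus strand, 5398 bp downstream of CDX1. Each runs on the same strand as its CDX gene. URAD, which encodes an enzyme of urate breakdown, was at a mean of 138 TPM in D4 CT3.0, 153 TPM in D4 CT4.0 and 5.52 TPM in D4 CT4.0RA, and at 56.2, 65.0 and 0.237 TPM in the same conditions at day 8. Like CDX2, URAD was thus high at CT3.0 and CT4.0 and low with RA. The sizes of the steps were not always alike. From D8 CT3.0 to D8 CT4.0 mean CDX2 went from 69.8 to 130.8 TPM, and URAD from 56.2 to 65.0 TPM. SLC6A7, a transporter of proline, reached 2.36 TPM in D4 CT4.0RA and 1.15 TPM in D8 CT4.0RA and was at or under 0.219 TPM elsewhere. Of the other genes beside CDX2, GSX1, a factor of the dorsal neural tube 167368 bp away, had an r of 0.825 and reached 12.5 TPM in D8 CT4.0, and FLT3 had an r of -0.255. Reads that run from one gene into the next were not tested for.

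**Figure D5:**
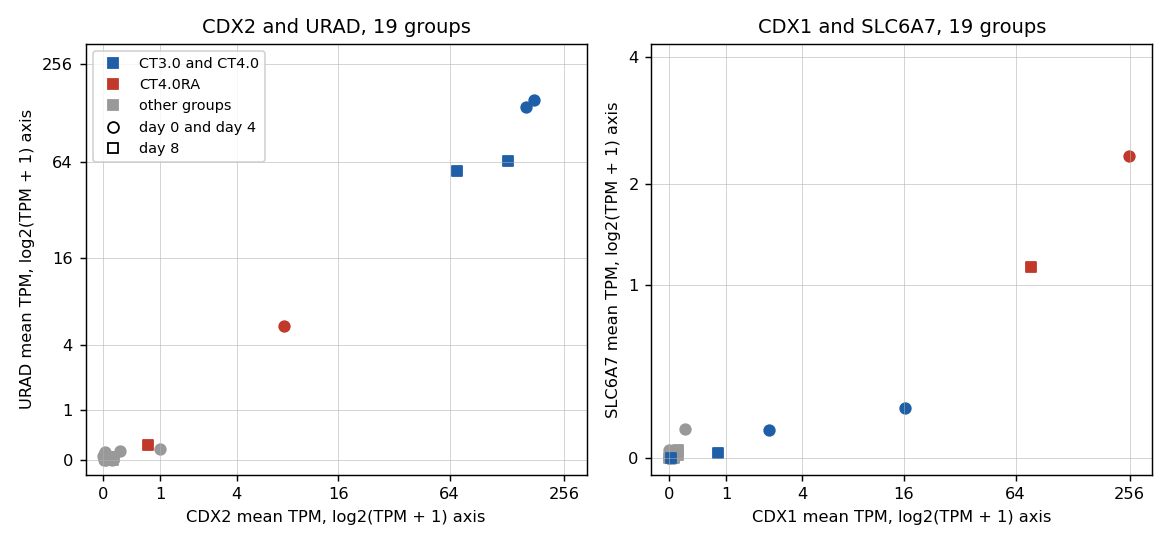
Mean TPM of CDX2 and its neighbour URAD (left) and of CDX1 and its neighbour SLC6A7 (right) in 19 groups, both axes on a log2(TPM + 1) scale; each point is the mean of 2 libraries. URAD is above 50 TPM in the 4 groups at CT3.0 and CT4.0, and SLC6A7 is above 1 TPM in the 2 RA groups only.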

How the data were processed

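The submitters' processing notes name Salmon 0.8.2, CASAVA 1.7 and the build hg38, without roles or settings. The authors deposited 1 table of TPM per gene, which keeps no read depth, so no counting interval can be given. Genes that reached 1 TPM in 2 or more of 38 libraries (28221 of 58219) were fitted on log2(TPM + 1) with limma 3.58.1 in R 4.3.3 (lmFit, contrasts.fit, eBayes with a trend; 19 group means, 19 residual degrees of freedom, 40 contrasts), after a check on simulated data. Benjamini-Hochberg adjustment ran over all genes of a contrast. The members, gene lists, tests and alternatives were chosen with earlier results of these data known. Genes named are the CDX genes, the 5 most alike by Pearson's r, and per list up to 4 called members of largest change and 2 most abundant uncalled members; others, such as HOXD4, HOXB9, AXIN2, the markers and the neighbours, were named after their values were seen. A few genes that the rule took are not reported here. Of 38 libraries, 33 correlated best with their own group (r within groups 0.958 to 0.972), and the others were the pairs of D8 CT0.0 and of D4 CT3.0 and, from D8 CT4.0, replicate 1. No label ties a library to either of the instruments used. Alternatives were another pseudocount (0.1), no filter, TMM-type scaling, removal of 83 ribosomal protein and 37 mitochondrial genes, a replicate block, fits of only the groups compared, and leaving out each library. A fit of the 6 groups at CT3.0 and above was added after seeing the data.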

Additional observations from a re-analysis of the deposited data

Results flagged for a closer look

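Interaction terms of the limma fit showed effects on CDX genes that differed between day 4 and day 8. On the log2(TPM + 1) scale, the effect of RA on CDX1 was larger at day 8 by 1.51 (adjusted p = 0.01). That call was lost with a pseudocount of 0.1 and when only the groups compared were fitted. It was also lost with the 6 groups at CT3.0 and above. The term was 1.01 to 2.01 with 1 library left out. Mean CDX1 fell between the days with RA (252.9 to 77.6 TPM) and without it (16.3 to 0.822 TPM). The effect of RA on CDX2, a decrease, was also larger at day 8, with a term of -1.93 (adjusted p = 5.95e-05). The effect of CT4.0 on CDX1 was smaller at day 8, with a term of -3.30 (adjusted p = 4.13e-06). With RA, CDX1 was higher and CDX2 lower in 2 of 2 libraries on each day. The terms for RA and for CT4.0 share the CT4.0 libraries of each day.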

How the results depend on the processing

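Only results called in the main fit could lose a call, so the 48 results below exceed the calls at risk. Over these 48 results of CDX genes (with 19 further comparisons near 0 in which no CDX gene was called under any setting), no filter on low values and TMM-type scaling changed no call. The replicate block changed no call either, for example CDX1 with RA at day 8 stayed at 5.47. Replicate differences of 171 pairs of groups correlated at -0.043 to 0.037 over all genes tested. Such correlations cannot show whether the 3 CDX genes share a replicate effect, since they rest on all genes. Removal of ribosomal protein and mitochondrial genes added 4 calls, and moved 10 of 16 levels by more than 1 SD. With pseudocount 0.1, 37 of 48 were unchanged in call: CDX1 in CT4.0 against untreated at day 8 was called (2.30), the CDX1 RA term was not (2.56), and the CDX2 CT4.0 term turned sign (0.73). When only the groups compared were fitted, 14 calls were lost, including CDX1 (4.03) and CDX4 (1.73) in CT4.0 and CDX1 (3.96) and CDX4 (-1.73) with RA at day 4, CDX4 at day 8 (1.03 and -1.03) and the CDX1 RA term (1.51). Such fits both hold fewer libraries and leave out most groups near 0, and which of these mattered was not tested. The 6 groups at CT3.0 and above lost 3 calls over 23 results, called or not, among them CDX4 with RA at day 8 (-1.03) and the CDX1 RA term (1.51). Leaving out 1 library gave 8 lost calls, 11 gained and 3 sign changes in 220 fits. Differences ranged from -1.28 to -0.77 for CDX4 with RA at day 8, 0.77 to 1.28 for CDX4 and 0.35 to 1.11 for CDX1 in CT4.0 at day 8, 1.01 to 2.01 for the CDX1 RA term, 0.013 to 1.38 for the CDX4 RA term and -1.38 to -0.013 for the CDX4 CT4.0 term. The sign turned for CDX4 in D4 CT4.0 against D0 ESC (-0.61 to 0.76) and in CT3.0 between days (-0.87 to 0.059). The cause of these changes was not tested. Depth is unknown, so values under about 1 TPM are of unknown precision.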

Other observations

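HOX genes of groups 10 to 13, which pattern the most posterior axis, were low in all groups in which CDX genes had signal, and 2 of the 12 passed the filter on low values. HOXA10 went from 1.75 TPM in D4 CT4.0 to 0.143 TPM with RA (-1.25, adjusted p = 7.24e-07 by limma), and HOXC10 from 3.59 TPM in D8 CT4.0 to 0 with RA (-1.95, adjusted p = 1.61e-05). Among 8 markers of pluripotent cells, none was called with RA on either day, beside 1.77% of all genes called higher and 4.07% lower at day 4 and 4.54% and 4.33% at day 8. Their summed TPM was 674 to 694 in D4 CT4.0 and 439 to 452 in D4 CT4.0RA, of which LIN28A made up 579 and 365 TPM. NANOG was at 0.0751 and 0.0458 TPM in these groups. Of 8 neural crest markers, 1 rose and 2 fell with RA at day 4 (median -0.01 against -0.18 for all genes), beside 1.77% and 4.07% of all genes. PAX3 went from 1.84 to 6.79 TPM and SNAI2 from 7.07 to 0.398 TPM, and SOX10 and FOXD3 were listed at 0.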
